A study of Cricetulus griseus with 9 samples.

Results

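The genes for mitochondrial ribosomal proteins were followed across 9 RNA-seq libraries of a Chinese hamster ovary cell line, as all rows whose symbol is Mrpl or Mrps followed by a number and at most a letter. The rule took 69 of the 6753 genes in the table and used no measured value. By their known places in the mammalian mitochondrial ribosome, 44 encode proteins of the large subunit and 24 proteins of the small subunit. Mrps30 and Mrps18a carry a small-subunit name but sit in the large subunit and were counted there. Mrps36 is now placed in the 2-oxoglutarate dehydrogenase complex of the TCA cycle and belongs to neither subunit. Another 9 subunit genes (Mrpl1, Mrpl15, Mrpl17, Mrpl24, Mrpl33, Mrpl42, Mrpl51, Mrps21 and Mrps28) were not analysed here.

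Mitochondria keep a small genome, and their own ribosome translates its messages into core subunits of the respiratory chain and the ATP synthase. The RNA of that ribosome is made inside the organelle, whereas all of its proteins are encoded in the nucleus, translated in the cytosol and imported. Some of these proteins have counterparts in bacterial ribosomes, and others were added during the evolution of mitochondria.

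The cells were MI5-4, a Chinese hamster ovary subline, grown in glucose-containing medium with serum, and each group had 3 libraries. WTHK2 cells are labelled as expressing wild-type HK2, the second hexokinase isozyme, which phosphorylates glucose at the entry to glycolysis. LAC cells are the empty-vector line after 24 h in 10 mM sodium lactate, and EV cells carry an empty vector and are described as hexokinase null, a background that all groups share. The labels do not say whether a line is a clone, which promoter drives HK2, or that each replicate was a culture of its own, so the p-values speak only to the spread seen among these libraries. By its title the study asks how HK2 and lactate affect transcription through histone lactylation, and RNA was the only readout here.

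The libraries labelled WTHK2 did not stand above the controls in Hk2, with 66.6, 65.3 and 63.9 CPM in WTHK2, 64.7, 70.4 and 68.5 CPM in LAC and 68.4, 68.7 and 64.9 CPM in EV, so a direction in WTHK2 is that of the libraries with this label. The log2 fold change of Hk2 was -0.04 in WTHK2 against EV (95% interval -0.16 to 0.067, limma adjusted p = 0.522). Whether the construct's reads were counted under this symbol is not given in the sources used here. Of 19 genes listed as a check of the cells, 4 were analysed: Hk2, Hk1, Vim and Col3a1; markers of leukocytes, epithelium, endothelium and hepatocytes were not analysed here. Hk1, another hexokinase gene, had 279, 284 and 294 CPM in WTHK2 and 332, 321 and 318 CPM in EV and fell in WTHK2, at -0.18 (adjusted p = 0.000364). Hk1 fell in LAC against EV as well, at -0.10, and was called lower there too. Reads of Hk1 and Hk2 were thus present in EV, the line described as hexokinase null, and protein was not measured here. Read numbers were inferred from the steps between CPM values and are not stated by the authors. On that inference, effective library sizes ran from 18050959 to 26238659 reads, and the fewest reads for any member in a library were 411. The unit was normalized CPM, reads divided by the effective size of each library, which is not corrected for gene length, so levels are compared between samples and not between genes. All 69 members passed the filter of a mean of at least 1 CPM, and their means over the 9 libraries ran from 22.9 CPM (Mrps16) to 319 CPM (Mrpl12).

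Transcripts of the mitochondrial ribosomal proteins were higher in both WTHK2 and LAC than in EV, by a small amount that most members shared. Together the 69 members held 5331, 5313 and 5348 CPM in the WTHK2 libraries, 5545, 5236 and 5531 CPM in the LAC libraries, and 4706, 4679 and 4760 CPM in the EV libraries. The means were 5331 ± 17.5 CPM in WTHK2, 5438 ± 174 CPM in LAC and 4715 ± 41.2 CPM in EV (SD, n = 3 each). Both groups lay above EV without overlap, by 13.1% in WTHK2 and 15.3% in LAC over the EV mean, and LAC replicate 2 lay below every WTHK2 library. The median member stood 0.19, 0.18 and 0.17 above its EV mean on the log2 scale in the WTHK2 libraries, and 0.24, 0.15 and 0.22 above it in the LAC libraries. Both fibroblast-type genes of the check that were analysed rose in WTHK2. Col1a1 and Col1a2, also on the list for the check, were not analysed here. Vim, an intermediate filament gene, had 3182, 3359 and 3266 CPM in WTHK2, 2710.2, 2689 and 2687 CPM in LAC and 2608, 2622 and 2665 CPM in EV, and rose in WTHK2 by 0.31 (adjusted p = 1.79e-07). Col3a1, a fibrillar collagen gene, had 291, 259.9 and 282 CPM in WTHK2, 189, 184 and 183 CPM in LAC and 189, 183 and 193 CPM in EV, and rose in WTHK2 by 0.56 (adjusted p = 1.11e-08). In LAC neither passed, with 0.03 (adjusted p = 0.362) for Vim and -0.02 (adjusted p = 0.684) for Col3a1. The 4 check genes together held 3818 to 3968 CPM in WTHK2, 3238 to 3269 CPM in LAC and 3195 to 3241 CPM in EV, and their part in the members' rise was not tested. In bulk RNA, a change in transcripts per cell and a change in the make-up of the culture cannot be told apart.

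**Figure D1:**
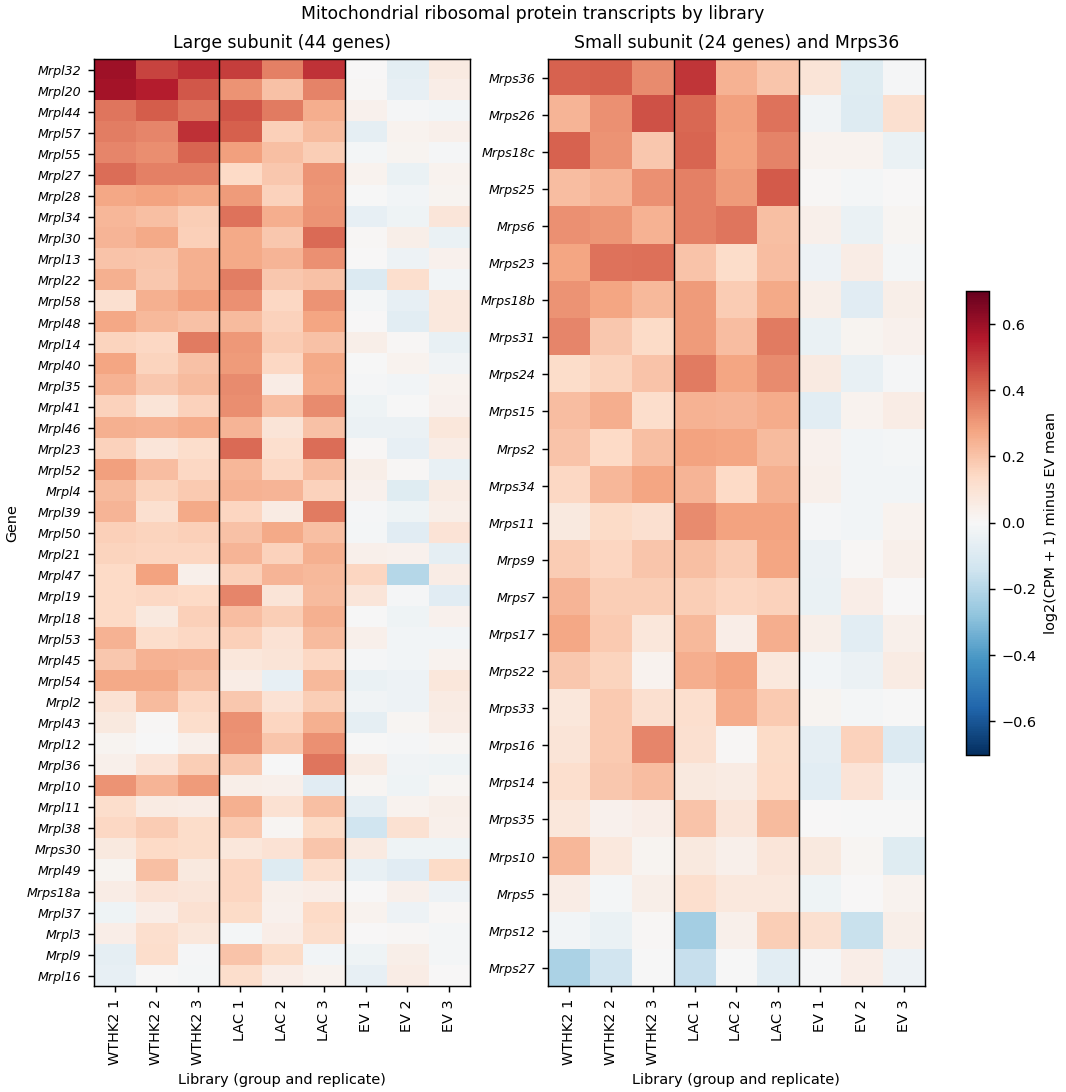
Level of each of the 69 members in each library as log2(CPM + 1) minus the EV mean of that member, by colour, with members as rows and the 9 libraries as columns. The 6 WTHK2 and LAC columns are mostly above 0 and the 3 EV columns scatter around it.

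In WTHK2 against EV, 42 of the 69 members rose and 0 fell by limma, with p-values adjusted after Benjamini-Hochberg over the whole table and a threshold of 0.05. That is 60.9% higher, where 46.4% of all genes passed, 21.0% as higher and 25.4% as lower. No member was lower at an unadjusted p under 0.05 either (0 of 69), and voom on reads taken from the CPM steps also gave 42 higher and 0 lower. The median member changed by 0.19 on the log2 scale, against a median of -0.0082 over all genes, and members ranged from -0.12 to 0.53. In 55 members all 3 WTHK2 libraries lay above all 3 EV libraries, against 26.6% of all genes, and in none of the 69 all 3 lay below, against 30.5% of all genes. The changes were small in size: 14 members (20.3%) reached a 1.2-fold rise, against 6.66% of all genes, and none of the 69 reached 1.5-fold. The split over all genes depended on the scaling: 1417 genes were higher and 1714 lower as deposited, and 1830 higher and 1363 lower after each library was rescaled to the same median, where 53 members were higher and the member median was 0.22.

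In LAC against EV, 51 of the 69 members rose and 0 fell by the same limma test, which is 73.9% higher, where 49.5% of all genes passed, 22.4% as higher and 27.1% as lower. At an unadjusted p under 0.05 the count lower was again 0, and voom gave 51 higher and 0 lower. The median member changed by 0.21 on the log2 scale, against -0.0035 over all genes, and the range was -0.08 to 0.45. No overlap between LAC and EV, with LAC above, was seen in 56 members, against 27.0% of all genes, and with LAC below in 0, against 30.8%. In size, 18 members (26.1%) rose at least 1.2-fold, against 6.28% of all genes. The 2 comparisons share the EV libraries: 39 members were called higher in both, 3 in WTHK2 alone, 12 in LAC alone and 15 in neither. The share of all genes called higher in both was not counted, so these counts stand without a background. All 6 WTHK2 and LAC libraries lay above all 3 EV libraries in 50 members (72.5%), and in 17.3% of all genes. Rescaling to the same median gave 2056 higher and 1450 lower of all genes in LAC against EV, and the deposited scaling 1512 higher and 1829 lower, and under the rescaling 58 members were higher with a member median of 0.26.

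**Figure D2:**
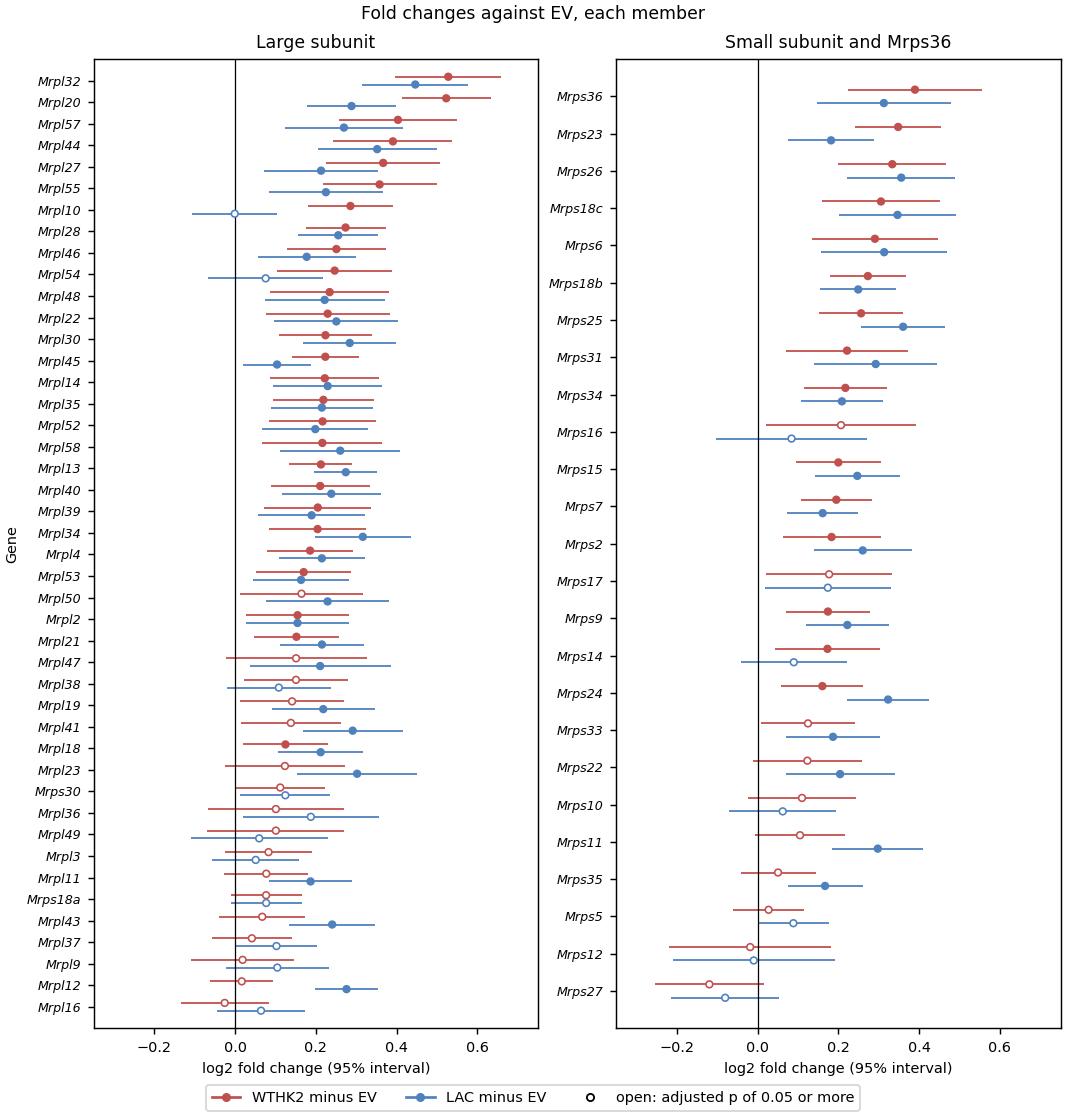
log2 fold change against EV (horizontal axis, limma estimate with 95% interval) for every member, with WTHK2 in red above LAC in blue, large-subunit genes on the left and small-subunit genes with Mrps36 on the right. Filled points passed an adjusted p of 0.05, and 66 of 69 points lie right of 0 in each comparison.

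The rise was spread over both subunits and over proteins old and new in evolution. In WTHK2, 27 of 44 large-subunit genes and 14 of 24 small-subunit genes rose, with median log2 changes of 0.19 and 0.18. In LAC, 33 of 44 large-subunit genes and 17 of 24 small-subunit genes rose, and both medians were 0.21. Genes with a bacterial counterpart had medians of 0.18 in WTHK2 and 0.21 in LAC (24 and 28 of 39 higher), and genes for proteins specific to mitochondria had medians of 0.21 in WTHK2 and 0.20 in LAC (17 and 22 of 29 higher). Of all genes, 21.0% were higher in WTHK2 and 22.4% in LAC. Differences between these classes were not tested.

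Among large-subunit genes with a bacterial counterpart, Mrpl32 had the largest rise in WTHK2 and in LAC. Its protein is known in yeast and mouse as a substrate that the m-AAA protease must cleave before it joins the ribosome. Mrpl32 stood at 60.4, 55.5 and 57.4 CPM in WTHK2, 56.0, 51.0 and 56.8 CPM in LAC and 39.9, 37.8 and 41.6 CPM in EV. Every WTHK2 and LAC library lay above every EV library. The log2 fold change was 0.53 (SE 0.063, adjusted p = 2.02e-06) in WTHK2 and 0.45 (SE 0.063, adjusted p = 1.44e-05) in LAC. Mrpl20, whose bacterial counterpart binds ribosomal RNA early in assembly, had 123, 119.7 and 110.3 CPM in WTHK2, 102, 93.9 and 104 CPM in LAC and 81.8, 78.3 and 84.3 CPM in EV. The 3 groups formed 3 separate steps with no overlap, WTHK2 highest and EV lowest, and the log2 fold change was 0.52 (SE 0.053, adjusted p = 2.55e-07) in WTHK2 and 0.29 (SE 0.053, adjusted p = 0.000192) in LAC. Mrpl27, the counterpart of a bacterial protein that reaches toward the peptidyl transferase centre, had 40.9, 39.8 and 39.8 CPM in WTHK2, 34.2, 35.4 and 38.7 CPM in LAC and 31.5, 29.9 and 31.5 CPM in EV. WTHK2 stood above LAC and LAC above EV, each without overlap. It rose in WTHK2 by 0.37 (SE 0.068, adjusted p = 0.000216), and its change in LAC, 0.21 (adjusted p = 0.0134), fell short of the threshold when EV replicate 2 was left out (adjusted p = 0.059) or LAC replicate 3 (adjusted p = 0.0763). Smaller rises without overlap in either comparison were found for Mrpl28, at 0.27 (adjusted p = 0.000124) in WTHK2 and 0.26 (adjusted p = 0.000215) in LAC, and for Mrpl13, at 0.21 (adjusted p = 0.000142) in WTHK2 and 0.27 (adjusted p = 9.95e-06) in LAC.

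Genes for large-subunit proteins found only in mitochondria were represented among the largest rises by Mrpl57 and Mrpl44. Mrpl57 had 55.5, 54.8 and 61.7 CPM in WTHK2, 57.9, 48.4 and 50.5 CPM in LAC and 41.2, 43.8 and 44.2 CPM in EV. Both groups lay above EV, with LAC replicate 2 closest to it. The log2 fold change was 0.40 (SE 0.07, adjusted p = 0.000117) in WTHK2 and 0.27 (SE 0.07, adjusted p = 0.00341) in LAC. Mrpl44, a protein with a fold related to ribonuclease III, had 33.8, 35.1 and 33.9 CPM in WTHK2, 35.5, 33.6 and 31.1 CPM in LAC and 26.5, 25.7 and 25.6 CPM in EV. The EV values were tightly grouped and below all 6 others, with log2 fold changes of 0.39 (SE 0.071, adjusted p = 0.000181) in WTHK2 and 0.35 (SE 0.071, adjusted p = 0.000434) in LAC.

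In the small subunit, the largest rises in LAC were those of Mrps25, Mrps26, Mrps18c and Mrps24. Mrps25, specific to mitochondria, had 89.5, 90.8 and 96.3 CPM in WTHK2, 98.6, 94.9 and 104 CPM in LAC and 77.5, 76.2 and 77.3 CPM in EV. All 6 values of WTHK2 and LAC exceeded EV, with log2 fold changes of 0.26 (SE 0.05, adjusted p = 0.000347) in WTHK2 and 0.36 (SE 0.05, adjusted p = 1.1e-05) in LAC. Mrps26, also specific to mitochondria, had 64.5, 68.4 and 74.6 CPM in WTHK2, 72.5, 66.7 and 71.3 CPM in LAC and 53.6, 51.2 and 59.2 CPM in EV. No value of WTHK2 or LAC fell within the EV range, and the log2 fold change was 0.33 (SE 0.065, adjusted p = 0.000334) in WTHK2 and 0.36 (SE 0.065, adjusted p = 0.000165) in LAC. Mrps18c is the member of a family of related proteins that takes the place of bacterial S18, and it had 44.2, 41.3 and 37.7 CPM in WTHK2, 44.0, 40.3 and 42.2 CPM in LAC and 33.5, 33.5 and 31.8 CPM in EV. It rose without overlap by 0.31 (SE 0.07, adjusted p = 0.0014) in WTHK2 and 0.35 (SE 0.07, adjusted p = 0.000432) in LAC. Its relative Mrps18b rose as well, by 0.27 (adjusted p = 6.88e-05) in WTHK2 and 0.25 (adjusted p = 0.000155) in LAC, whereas Mrps18a, the relative built into the large subunit, changed by 0.08 (adjusted p = 0.142) in WTHK2 and 0.08 (adjusted p = 0.137) in LAC and did not pass.

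Mrps36, which matches the naming rule without being a ribosomal protein, was among the largest rises in WTHK2. It had 41.3, 41.4 and 38.9 CPM in WTHK2, 43.9, 36.5 and 35.3 CPM in LAC and 32.8, 28.9 and 30.5 CPM in EV. WTHK2 and LAC lay above EV, with LAC spread more widely than the others. The log2 fold change was 0.39 (SE 0.079, adjusted p = 0.000526) in WTHK2 and 0.31 (SE 0.079, adjusted p = 0.00293) in LAC.

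**Figure D3:**
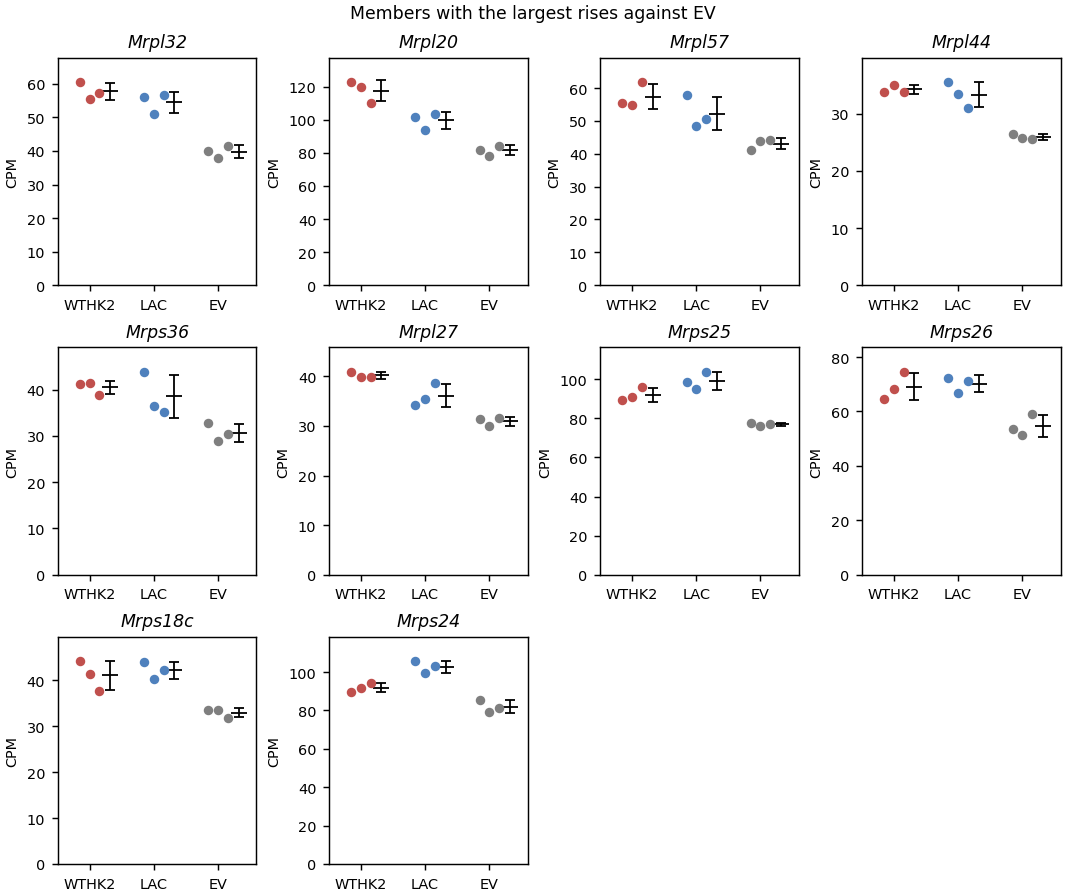
CPM in each library (points) with the group mean and SD (bars) for the members with the largest rises in WTHK2 or LAC against EV, 1 panel per gene, groups in the order WTHK2, LAC, EV. In every panel the EV points lie lowest. In Mrpl20, Mrpl27 and Mrps24 the 3 groups form separate steps, with LAC highest in Mrps24 and WTHK2 highest in the others.

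The 15 members called in neither comparison were Mrpl3, Mrpl9, Mrpl16, Mrpl36, Mrpl37, Mrpl38, Mrpl49, Mrps5, Mrps10, Mrps12, Mrps16, Mrps17, Mrps18a, Mrps27 and Mrps30. Of these, Mrps16 had the lowest mean of all members, with 22.8, 24.4 and 27.3 CPM in WTHK2, 23.1, 21.4 and 23.4 CPM in LAC and 20.4, 23.9 and 19.9 CPM in EV. Its groups overlapped in both comparisons with EV, and its intervals, 0.02 to 0.39 in WTHK2 and -0.10 to 0.27 in LAC on the log2 scale, include the median change of the members. The decoding-centre protein gene Mrps12 had 23.8, 23.4 and 24.3 CPM in WTHK2, 20.3, 24.7 and 27.3 CPM in LAC and 26.2, 21.6 and 24.9 CPM in EV. It had the widest scatter of all members within LAC, with a coefficient of variation of 14.6% there against a median of 4.74% over members. The log2 change of Mrps12 was -0.02 (adjusted p = 0.892) in WTHK2, with an interval of -0.22 to 0.18. Mrps12, chosen for naming after its values were seen, lies next to Sars2, the mitochondrial seryl-tRNA synthetase gene, in RefSeq's gene order. Sars2 rose by 0.88 (adjusted p = 9.68e-08) in WTHK2 and 0.36 (adjusted p = 0.00136) in LAC.

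Mrps27, a small-subunit protein with pentatricopeptide repeats, stood lowest among the members in both comparisons and was also named after its values were seen. It had 48.1, 51.0 and 56.1 CPM in WTHK2, 50.1, 56.0 and 53.4 CPM in LAC and 55.8, 58.0 and 54.9 CPM in EV, and both groups overlapped EV. Its log2 change was -0.12 in WTHK2 (interval -0.25 to 0.015, adjusted p = 0.134) and -0.08 in LAC (interval -0.21 to 0.054, adjusted p = 0.311). Without WTHK2 replicate 3, its change in WTHK2 passed the test as the only member called lower (adjusted p = 0.0436). Mrpl16 and Mrps12 were the other members with a value below 0 in WTHK2, at -0.03 and -0.02.

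In WTHK2 against LAC, 4 members were higher and 4 lower (limma), 5.8% each, where 16.1% of all genes passed, 8.37% as higher and 7.76% as lower, so the members' shares were near those of the table. The median member changed by -0.02 on the log2 scale, against 0.0041 over all genes, within a range of -0.26 to 0.29. The WTHK2 libraries lay wholly above LAC in 8 members and wholly below in 13, against 14.5% of all genes each way. The counts leaned on single libraries: 2 members were higher without WTHK2 replicate 2 or 3 or LAC replicate 1 or 2, and the number lower was 1 without LAC replicate 1, 8 without LAC replicate 2, and 2 without WTHK2 replicate 2 or LAC replicate 3.

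Mrpl10 had the highest log2 change of the members in WTHK2 against LAC and Mrpl12 the lowest. Mrpl10, whose protein anchors the ribosomal stalk, the flexible arm that recruits translation factors, had 96.8, 91.8 and 95.6 CPM in WTHK2, 79.8, 79.5 and 73.3 CPM in LAC and 78.2, 76.0 and 78.4 CPM in EV. WTHK2 stood alone above the other groups, which overlapped. Its log2 change was 0.29 (SE 0.05, adjusted p = 0.000466) in WTHK2 against LAC and 0.29 (SE 0.05, adjusted p = 0.000142) in WTHK2 against EV. In LAC against EV it was -0.00092 (interval -0.11 to 0.10, adjusted p = 0.991), the smallest absolute change of the 69. Mrpl12, whose product forms the stalk itself and has the highest mean CPM among the members, showed the reverse order. It had 301, 296 and 304 CPM in WTHK2, 368, 339 and 371 CPM in LAC and 297, 295 and 299 CPM in EV, so that LAC stood alone and WTHK2 overlapped EV. The log2 change was -0.26 (SE 0.038, adjusted p = 5.95e-05) in WTHK2 against LAC and 0.28 (SE 0.038, adjusted p = 9.98e-06) in LAC against EV. In WTHK2 against EV it was 0.02 (interval -0.062 to 0.095, adjusted p = 0.749), the smallest absolute change in that comparison.

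Mrpl20 was the third member whose call between WTHK2 and LAC held in each alternative tried, at 0.23 (SE 0.053, adjusted p = 0.00427) with the values given above. The other 5 calls rested on fewer libraries. Mrps23, a small-subunit protein specific to mitochondria, had 88.0, 94.7 and 95.3 CPM in WTHK2, 83.5, 79.4 and 84.5 CPM in LAC and 70.9, 75.1 and 71.7 CPM in EV, and WTHK2 lay above LAC without overlap. The log2 change was 0.17 (SE 0.051, adjusted p = 0.0305) in WTHK2 against LAC, and it did not pass without WTHK2 replicate 2 (adjusted p = 0.113) or 3 (0.129), or without LAC replicate 1 (0.0509), 2 (0.0854) or 3 (0.0506). Mrpl45, which binds the ribosome to the inner membrane, had 160.2, 166 and 166 CPM in WTHK2, 148, 149 and 155 CPM in LAC and 139.7, 139 and 143 CPM in EV. Its groups formed 3 steps, but the change of 0.12 (SE 0.04, adjusted p = 0.0474) in WTHK2 against LAC missed the threshold when leaving out EV replicate 1 (adjusted p = 0.0669), 2 (0.0653) or 3 (0.0622), WTHK2 replicate 2 (0.14) or 3 (0.14), or LAC replicate 1 (0.136), 2 (0.0823) or 3 (0.0538). Its change in LAC against EV, 0.10 (adjusted p = 0.0374), failed when leaving out EV replicate 1 (adjusted p = 0.0932), 2 (0.113) or 3 (0.0506) or LAC replicate 3 (0.134).

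The members lower in WTHK2 than in LAC besides Mrpl12 were Mrps11, Mrpl43 and Mrps24. Mrps11, a protein of the small-subunit platform, had 54.3, 56.9 and 55.9 CPM in WTHK2, 65.3, 63.0 and 62.9 CPM in LAC and 51.5, 51.0 and 52.6 CPM in EV. All LAC values lay above WTHK2, with a log2 change of -0.19 (SE 0.054, adjusted p = 0.0178), which did not pass without WTHK2 replicate 3 (adjusted p = 0.0534) or LAC replicate 1 (0.0679). Mrpl43, specific to mitochondria, had 108, 103 and 112 CPM in WTHK2, 128, 114 and 122 CPM in LAC and 98.1, 103 and 106 CPM in EV. WTHK2 lay below LAC and overlapped EV, and the change of -0.17 (SE 0.051, adjusted p = 0.0241) did not pass without WTHK2 replicate 2 (adjusted p = 0.113) or LAC replicate 1 (0.118) or 3 (0.0812). Mrps24, the counterpart of a bacterial protein at the messenger RNA entry site, had 89.6, 91.5 and 94.3 CPM in WTHK2, 106, 99.5 and 103 CPM in LAC and 85.7, 79.0 and 81.5 CPM in EV. LAC stood highest and the change of -0.16 (SE 0.049, adjusted p = 0.0262) did not pass without WTHK2 replicate 1 (adjusted p = 0.0598) or 2 (0.0726) or LAC replicate 1 (0.0957) or 3 (0.079). Against EV, Mrps24 rose in LAC by 0.32 (adjusted p = 2.77e-05), and its change of 0.16 (adjusted p = 0.0112) in WTHK2 was lost without EV replicate 2 (adjusted p = 0.0647).

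**Figure D4:**
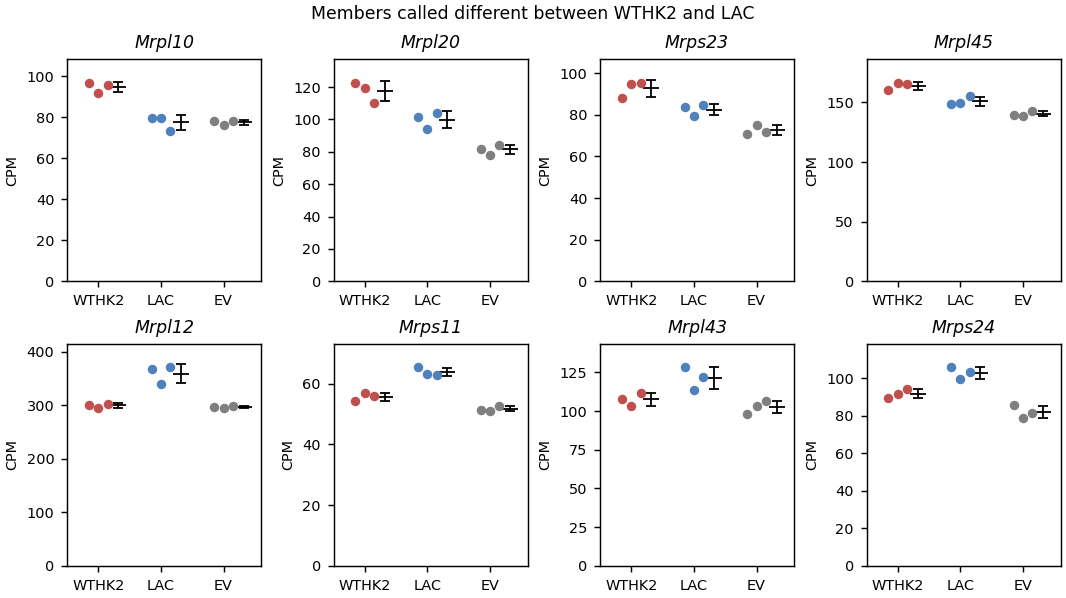
CPM in each library (points) with the group mean and SD (bars) for the members called between WTHK2 and LAC, 1 panel per gene, groups in the order WTHK2, LAC, EV. Mrpl10 stands out in WTHK2 alone, with LAC at the level of EV, and Mrpl12 in LAC alone, with WTHK2 at the level of EV.

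Genes beside the members in RefSeq's order of the hamster assembly CriGri-PICRH-1.0 were looked at after the members' values were seen, as the nearest 5 genes of the table on each side. For the 68 members that could be placed, the median of these neighbour medians was 0.0089 in WTHK2 against EV and -0.0078 in LAC against EV, on the log2 scale. Around Mrpl20, the 10 neighbours had a median of 0.57 in WTHK2 against EV, 0.13 in LAC against EV and 0.30 in WTHK2 against LAC, and 9 of the 10 rose in WTHK2. Those neighbours include Aurkaip1, itself a mitochondrial ribosomal protein gene. Around Mrpl10, the medians were 0.15 in WTHK2 against EV, -0.08 in LAC against EV and 0.16 in WTHK2 against LAC, and Mrpl45 lies in the same stretch. The neighbours of Mrpl43 include Twnk and had a median of -0.17 in WTHK2 against EV and -0.19 in WTHK2 against LAC. For Mrpl12 the neighbour medians were -0.07 in WTHK2 against EV and 0.10 in LAC against EV. Around Mrpl32, the largest rise, they were -0.07 in WTHK2 and -0.08 in LAC, each against EV. Of its 10 neighbours, 4 were higher and 2 lower in WTHK2, and 3 higher and 4 lower in LAC. Psma2, directly beside Mrpl32, changed by 0.28 in WTHK2 and 0.16 in LAC. The part of the neighbourhood in any of these changes was not tested. On that assembly 13 members overlap a directly adjacent protein-coding gene by their start and end, among them Mrpl27 (Eme1), Mrpl57 (Ska3), Mrps24 (Foxo1) and Mrps25 (Nr2c2). Overlap with other genes was not looked for. How reads in a shared stretch were counted is not known, as the strand setting of the counting is not given in the sources used here.

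Mitochondrial ribosomal proteins with other symbols were counted separately, 5 of a list of 7 being in the table. Aurkaip1, a small-subunit protein first named for its interaction with Aurora A kinase, had 176, 156 and 158 CPM in WTHK2, 132, 131 and 132 CPM in LAC and 106, 106 and 105 CPM in EV. The 3 groups were apart, and Aurkaip1 rose by 0.62 (SE 0.046, adjusted p = 6.41e-09) in WTHK2 and 0.31 (SE 0.046, adjusted p = 2.01e-05) in LAC, more in WTHK2 than any of the 69 members. Chchd1, a small-subunit protein, rose by 0.26 (adjusted p = 0.000623) in WTHK2 and 0.30 (adjusted p = 0.000156) in LAC. Gadd45gip1, of the large subunit, changed by 0.18 (adjusted p = 0.011) in WTHK2, a call that did not hold when EV replicate 1 (adjusted p = 0.0512) or WTHK2 replicate 2 (0.0594) was left out, and by 0.09 (adjusted p = 0.162) in LAC. Dap3, a GTP-binding small-subunit protein, changed by 0.10 (adjusted p = 0.0827) in WTHK2 and 0.11 (adjusted p = 0.0519) in LAC, and Ptcd3 by -0.07 (adjusted p = 0.0898) in WTHK2 and 0.06 (adjusted p = 0.155) in LAC, none of which passed.

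Factors that build this ribosome were counted from a list of their own. Of 21 assembly factors in the table (29 listed), 3 were higher in WTHK2 and 8 in LAC, with median log2 changes of 0.07 and 0.13. Those are 14.3% in WTHK2 and 38.1% in LAC, beside 21.0% and 22.4% of all genes. Mettl17, an assembly factor of the small subunit, changed by 0.07 (adjusted p = 0.442) in WTHK2 and rose by 0.40 (adjusted p = 0.000203) in LAC, and the log2 difference WTHK2 minus LAC was -0.32 (adjusted p = 0.00427). Mtg2, a GTPase of large-subunit assembly, changed by 0.08 (adjusted p = 0.257) in WTHK2 and rose by 0.21 (adjusted p = 0.0034) in LAC. Tfb1m, which methylates the small ribosomal RNA, rose by 0.26 (adjusted p = 0.00392) in LAC. Its value in WTHK2, 0.22 (adjusted p = 0.0134), did not hold when EV replicate 2 (adjusted p = 0.0766) or WTHK2 replicate 2 (0.0614) was left out. The other WTHK2 calls were as sensitive: Mterf3, at 0.21 (adjusted p = 0.0136), failed when EV replicate 1 (adjusted p = 0.0512) or WTHK2 replicate 3 (0.0554) was left out, and Mpv17l2, at 0.20 (adjusted p = 0.0256), failed when EV replicate 2 (adjusted p = 0.161) or WTHK2 replicate 1 (0.0785) or 2 (0.0623) was left out.

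Of 10 mitochondrial translation factors, 2 were higher in WTHK2, and 4 were higher and 1 lower in LAC, with medians of 0.02 in WTHK2 and 0.12 in LAC. The shares higher were 20% in WTHK2 and 40% in LAC, beside 21.0% and 22.4% of all genes. Tufm, the elongation factor that delivers aminoacyl-tRNA, rose by 0.12 (adjusted p = 0.0123) in WTHK2 and 0.23 (adjusted p = 5.43e-05) in LAC. Oxa1l, which inserts the nascent chains into the inner membrane, rose by 0.20 (adjusted p = 0.00253) in LAC, and its value in WTHK2, 0.14 (adjusted p = 0.0264), failed when EV replicate 1 (adjusted p = 0.18) or WTHK2 replicate 3 (0.105) was left out. Of 10 mitochondrial tRNA synthetases, 4 were higher and 1 lower in WTHK2, and 3 higher and 1 lower in LAC, so that 40% in WTHK2 and 30% in LAC were higher. Aars2, for alanine, rose by 0.22 (adjusted p = 0.0023) in WTHK2, Vars2, for valine, rose by 0.25 (adjusted p = 0.00258) in LAC, and Iars2, for isoleucine, fell, at -0.18 (adjusted p = 0.00114) in WTHK2 and -0.15 (adjusted p = 0.00579) in LAC.

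Among 13 genes of mitochondrial transcription and RNA handling, 4 were higher and 2 lower in WTHK2, and 4 were higher in LAC. The shares were 30.8% higher and 15.4% lower in WTHK2, beside 21.0% and 25.4% of all genes, and 30.8% higher in LAC, beside 22.4%. Slirp, an RNA-binding protein that stabilises mitochondrial messages, rose by 0.32 (adjusted p = 0.000396) in WTHK2 and 0.40 (adjusted p = 4.28e-05) in LAC. Hsd17b10, a subunit of mitochondrial RNase P, rose by 0.21 (adjusted p = 0.000302) in WTHK2 and 0.24 (adjusted p = 5.51e-05) in LAC. Twnk, the replicative helicase of the mitochondrial genome and neighbour of Mrpl43, fell in WTHK2, at -0.48 (adjusted p = 4.76e-07), and changed by -0.12 (adjusted p = 0.0513) in LAC. Of 8 regulators of mitochondrial gene expression and biogenesis, 3 were lower in WTHK2, and 1 was higher and 2 lower in LAC. The shares lower were 37.5% in WTHK2 and 25% in LAC, beside 25.4% and 27.1% of all genes. Those called lower were Hcfc1, Pprc1 and Yy1 in WTHK2, and Hcfc1 and Gabpa in LAC. Values were below 0 in all 8 regulators in WTHK2 and in 5 of 8 in LAC, with medians of -0.08 and -0.03. Of all 6753 genes, 3497 were below 0 in WTHK2 and 3425 in LAC. No difference of these lists from all genes was tested. Hcfc1, a chromatin-bound co-regulator, fell, at -0.38 (adjusted p = 1.16e-05) in WTHK2 and -0.51 (adjusted p = 8.23e-07) in LAC. Nrf1, a transcription factor of many nuclear genes for mitochondrial proteins, changed by -0.01 (adjusted p = 0.924) in WTHK2 and 0.01 (adjusted p = 0.886) in LAC, and Myc by -0.0041 (adjusted p = 0.926) in WTHK2 and 0.23 (adjusted p = 1.23e-05) in LAC, where it rose.

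Most nuclear genes of the respiratory chain and most cytosolic ribosomal protein genes rose alongside the members. Of 61 nuclear genes of the respiratory chain and ATP synthase, 47 rose in WTHK2 and 52 in LAC, with medians of 0.20 and 0.24, beside 0.19 and 0.21 for the members. Of 34 cytosolic ribosomal protein genes, 32 rose in WTHK2 and 33 in LAC, with medians of 0.19 and 0.26. In WTHK2 against LAC, 11 of those 34 were lower and 1 higher, beside 7.76% and 8.37% of all genes. Against EV, 21.0% of all genes were higher in WTHK2 and 22.4% in LAC, and 25.4% and 27.1% were lower. The 4 mitochondrially encoded messages in the table, COX1, COX3, CYTB and ND4, rose in both groups, with medians of 0.52 in WTHK2 and 0.59 in LAC, although COX1 did not pass under quantile normalization in either comparison. They were highest in the first replicates, at 0.73, 0.45 and 0.40 over the EV mean in the WTHK2 libraries and 0.80, 0.52 and 0.45 in the LAC libraries. Genes for very long proteins moved the other way: of 66 in the table, 53 fell in WTHK2 and 57 in LAC, with medians of -0.29 and -0.28. Per library those medians were -0.22, -0.30 and -0.31 in WTHK2 and -0.32, -0.23 and -0.33 in LAC. That list was compiled with earlier results of these data known, and the part of transcript length or RNA quality in the members' rise was not tested. With replicate 1 of WTHK2 and of LAC left out, 42 members were higher in WTHK2 and 50 in LAC, beside 1300 and 1345 of all genes. That alternative was added after seeing the data.

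**Figure D5:**
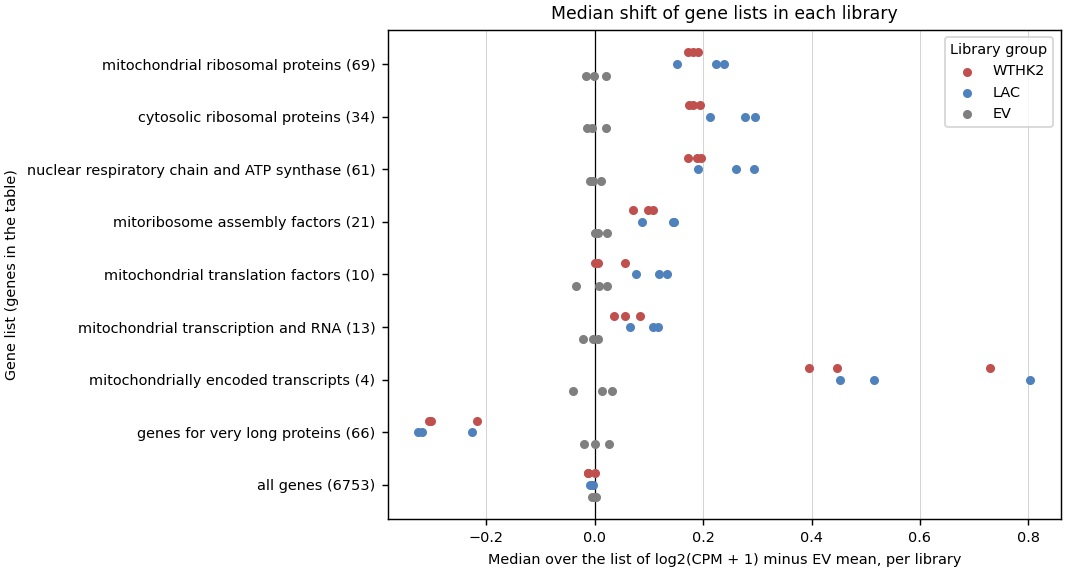
Median log2(CPM + 1) minus the EV mean (horizontal axis) of each gene list in each library, 1 point per library, with lists as rows and WTHK2 above LAC above EV within a row. The members, the respiratory chain and the cytosolic ribosomal proteins lie between 0.15 and 0.30 in WTHK2 and LAC, the mitochondrially encoded messages lie further right and the genes for very long proteins below 0.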

How the data were processed

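Total RNA of MI5-4 cells went into mRNA libraries, 3 per group. Per the submitters' processing notes, the authors' tools were STAR 2.7.0a, featureCounts 2.0.1, edgeR 3.8, cutadapt 1.18 and FastQC 0.11.8, with no role or order stated. For build and annotation, nothing is given in the sources used here. Normalized CPM of 6753 genes were deposited, divided by the authors by an effective library size. In each library the CPM of the listed genes summed to between 803164 and 813984. With an effective library size the total over all genes is not given, so that sum is not a share of reads. The gene with the lowest mean had 20.4 CPM.

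Each value was a whole multiple of its library's step (tolerance 0.05), from which effective library sizes were inferred; the authors do not state them, and the inferred reads served only for a voom alternative. The test was limma (3.58.1, R 4.3.3) on log2(CPM + 1), a scale that slightly understates changes of low genes. A single fit held all 9 libraries, with a trended variance prior and no covariate, after a filter on means under 1 CPM that removed 0 genes. Tests were two-sided, Benjamini-Hochberg adjustment ran over 6753 genes with a threshold of 0.05, and intervals are at 95%. The fit was also run on simulated data. That simulation had independent noise and few changed genes, unlike these data, so no conclusion is drawn from it. Python 3.11.15, pandas 2.3.3 and matplotlib 3.10.9 made the tables and figures.

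Members were taken by symbol. Values in every library were given for up to 6 called members with the largest rise and fall in each comparison. They were also given for members called against the main direction, the highest and lowest mean CPM and the smallest change against EV. Of other lists, up to 3 called genes were chosen in each comparison with EV, of which not all are named above. Some genes that were not called are named beside them. Members, lists and rules were chosen with earlier results of these data known. Sequences, protein lengths and gene lengths were not used here.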

Additional observations from a re-analysis of the deposited data

How the results depend on the processing

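Alternatives fixed with the design were other pseudocounts (0.25, 4), no low-value filter or 50 CPM, median rescaling, quantile scaling, separate fits of 6 libraries, variance priors without trend or made robust, a replicate block, an adjusted p under 0.01, and leaving out each library. Added after seeing the data were voom on reads from the CPM steps and a fit lacking replicate 1 of WTHK2 and of LAC. The planned count test was not run, since the reads are only inferred from the CPM steps. A planned description of all genes by protein length and of member levels per length was not made either, since no lengths were at hand. Members higher in WTHK2 numbered 42 and ranged from 37 to 46 as libraries were left out, and in LAC 51, from 41 to 53. All genes higher moved too, from 1089 to 1492 in WTHK2 and from 1150 to 1614 in LAC. With the filter at 50 CPM, which drops members, 28 members were higher in WTHK2 and 34 in LAC, beside 1025 and 1128 of all genes. With an adjusted p under 0.01 the members higher were 30 and 40. Members lower in WTHK2 than in EV ranged from 0 to 1 as libraries were left out. At an adjusted p under 0.01, 941 of all genes were higher in WTHK2 and 998 in LAC. In WTHK2 against LAC that threshold left 2 members higher and 1 lower, and 281 of all genes higher and 260 lower. Fits of 6 libraries left 2 members higher there, and 1 member was lower without the first replicates. As libraries were left out, members higher in WTHK2 than in LAC ranged from 2 to 4, members lower from 1 to 8, all genes higher from 333 to 650 and all genes lower from 329 to 629. Of the called members, 29 of 42 in WTHK2, 38 of 51 in LAC and 3 of 8 between them were called in every alternative that kept the gene, and no called member changed sign. With the replicate block, 46 members were higher in WTHK2, 53 in LAC and 4 in WTHK2 against LAC, beside 1558, 1672 and 732 of all genes. In deviations from group means, same-numbered libraries of different groups correlated from -0.0057 to 0.44, and libraries of unlike number from -0.33 to 0.19. Of the 9 libraries, 5 correlated best with their own number in both other groups. The labels do not say that the numbers mark pairs or batches. The main fit left them out and so may ignore an effect shared by libraries of the same number. The fewest inferred reads for a member, 411, and 3 libraries per group limit the precision for the lowest members.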
